A study of Mus musculus with 7 samples.

Results

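Acta2-low myoepithelial cells were the cells named myoepithelial by the authors in aged mice that held 0 UMIs (unique molecular identifiers, each 1 captured mRNA molecule) of Acta2, the gene of smooth muscle actin. There were 393 of them among 1389 myoepithelial cells of 4 aged mice, of 13684 cells in all, and they were set against the 501 cells of the same mice with 5 or more Acta2 UMIs, called Acta2-high. The other 495 cells held 1 to 4 UMIs. Because Acta2 chose the classes, its own values are a description and were not tested. Every mouse was a cycling virgin female from a mixed background of the FVB, 129 and C57BL/6J strains, taken in diestrus, and the #4 mammary glands were dissociated after the lymph nodes had been removed. The aged mice (Aged A to D) were 13 to 14 months old, and the 3 young mice (Young A to C) were 3 to 4 months old. Each mouse gave 1 library of 10x 3′ v2 chemistry, so an effect of age and one of library handling cannot be told apart.

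Myoepithelial cells form the basal layer of mammary ducts and alveoli. They carry the keratins of basal epithelium together with the contractile apparatus of smooth muscle, and they squeeze milk toward the nipple when oxytocin reaches its receptor. Smooth muscle actin filaments slide on smooth muscle myosin once myosin light chain kinase has phosphorylated the regulatory light chain. Many genes of this apparatus are driven by serum response factor (SRF) and its cofactors of the myocardin family, which bind a short DNA element called the CArG box. Acta2 is widely used to mark myoepithelial cells in tissue sections.

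Cells without an Acta2 UMI made up 30.5% of the myoepithelial cells in Aged A (80 of 262), 24.9% in Aged B (165 of 662), 24.0% in Aged C (30 of 125) and 34.7% in Aged D (118 of 340). Among the 281 myoepithelial cells of young mice 1 cell had 0 UMIs, in Young C, and 3 had 1 to 4. A myoepithelial cell held on average 5.53, 7.96, 6.31 and 3.89 Acta2 UMIs in Aged A, B, C and D, and 45.8, 22.1 and 52.7 in Young A, B and C. The aged and young means did not overlap. The classes cut a continuous range, since just outside the lower limit 30, 74, 17 and 60 cells of Aged A to D held 1 UMI, and at the upper limit 39 cells of Aged B held 4 UMIs and 23 held 5. Acta2-high cells ranged from 2172 to 3635 CPM (counts per 1000000 UMIs) across the mice. The 0 counts of the 393 Acta2-low cells were set by the rule, so they give no upper limit on the Acta2 level of these cells. An Acta2 UMI was also found in 6.14% of aged luminal AV cells (alveolar-type luminal cells, which lack the contractile apparatus). Their median depth was 6877.5 UMIs per cell, against 4222 in Acta2-low and 4646 in Acta2-high cells. The part of free mRNA and of doublets in this share was not tested.

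**Figure D1:**
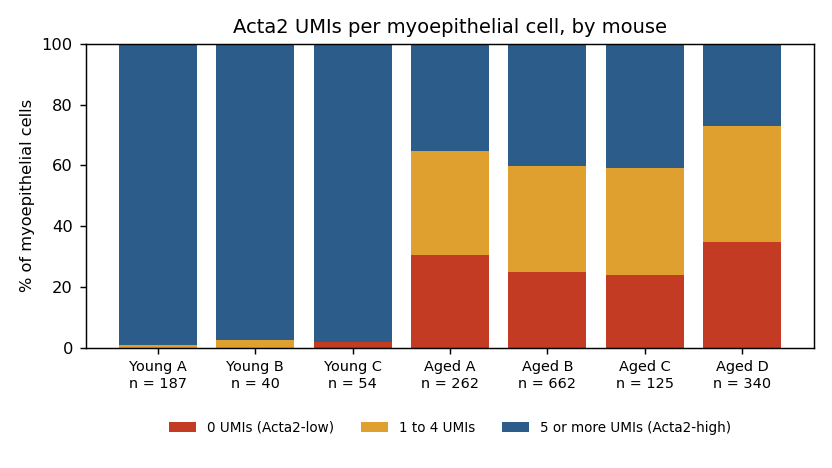
Percent of the myoepithelial cells of each mouse (bars, 0 to 100) with 0, 1 to 4, or 5 or more Acta2 UMIs, with the number of cells under each mouse. Cells with 0 UMIs made up 24.0% to 34.7% in aged mice and 1 cell of 281 in young mice.

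Acta2-low cells held the basal keratins of their label. The authors recognised myoepithelial cells by Krt17, Krt14 and Krt5 among other markers, so this is a description and no independent check. Krt14, a keratin of basal epithelium, had a UMI in 98.5% of Acta2-low cells (95% Wilson interval 96.7 to 99.3) and in 99.0% of Acta2-high cells, against 15.4% of AV cells. With each cell thinned to 2000 UMIs the shares were 95.9%, 98.0% and 4.92%. Krt17, another keratin of the basal layer, was found in 98.7% of Acta2-low and 16.6% of AV cells, and 97.5% and 6.21% after thinning. A cell held a median of 37 UMIs of Krt14, Krt17 and Krt5 together in the Acta2-low class and 57 in the Acta2-high class. Of the luminal keratins, Krt8 had a UMI in 78.4% of Acta2-low, 86.8% of Acta2-high and 99.1% of AV cells. For Krt18 the shares were 61.1%, 65.3% and 99.9%. In the paired test described below Krt18 was called higher in Acta2-low cells. Its log2 change was 0.52 to 0.71 over the 4 fits that left out a mouse, and 2 of them lost the call. Intervals on shares cover counting error only. Of 7284 barcodes in the aged libraries 28 occurred in more than 1, and 2 Acta2-low cells carried such a barcode. The aged libraries held 10207251 to 16999625 UMIs and the young ones 6652599 to 16547583.

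Because deeper cells have more chances to show a UMI, cells of the 2 classes were paired 1 to 1 within each mouse on depth. Each cell of the smaller class took the nearest unused cell of the other class, and cells without a partner within 10% were left out. This gave 71, 152, 29 and 88 pairs in Aged A to D, so 340 of the 393 Acta2-low cells entered the test. Counts were summed per mouse and class and tested with edgeR's quasi-likelihood test with the mouse as a block. The p-values were adjusted by the Benjamini-Hochberg method over all 3373 genes tested, and calls needed an adjusted p under 0.05 with a change of at least 1.5-fold. Of these genes 73 were higher in Acta2-low cells (2.16%) and 117 were lower (3.47%). Levels are given as CPM over UMIs other than Acta2, and fold changes are on the log2 scale after TMM scaling, with their standard error. TMM put the median of all genes at 0.02, and without it the median lay at -0.14 and 33 genes were higher and 223 lower, so small changes should be read against a shift of that size.

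The contractile genes fell together in Acta2-low cells. Of the 20 genes on the contractile list 15 passed the filter on low counts, and 11 of these were lower and 0 higher (background 3.47% lower). The median log2 change of the 15 was -1.40, beside 0.02 over all genes. The 4 sums of each class did not overlap for any of the 11 called genes, which was so for 7.86% of all genes tested, and each was lower in 4 of 4 mice, as were 19.5% of all genes. Summed over the 20 genes, the level ranged from 3221 to 3708 CPM in Acta2-low and from 7782 to 10984 CPM in Acta2-high sums, while AV cells of the same mice lay at 1565 to 1760 CPM.

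Myl9, the regulatory light chain of smooth muscle myosin (chr2:156775420-156781658, GRCm38), showed the largest fall among the contractile genes that passed the count filter. Its level was 71.4, 56.5, 7.05 and 59.6 CPM in Acta2-low cells of Aged A, B, C and D, and 602, 538, 474 and 422 CPM in Acta2-high cells. Every mouse was lower in the Acta2-low class, and the log2 change was -3.06 ± 0.186 (SE, adjusted p = 7.4e-16). Myl6, the essential light chain, stayed at a higher level: 917, 825, 648 and 679 CPM against 2349, 2069, 1540 and 1520 CPM. It fell by 1.12 on the log2 scale (SE 0.0878, adjusted p = 6.3e-13), a smaller change than that of Myl9 in each of the 4 mice by these levels.

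The heavy chain of smooth muscle myosin, Myh11 (chr16:14194535-14291372), was at 28.6, 33.9, 35.2 and 10.6 CPM in Acta2-low cells and at 181, 212, 146 and 115 CPM in Acta2-high cells. Its log2 change was -2.56 ± 0.24 (adjusted p = 1.05e-10). Mylk, the kinase that switches the light chain on, was at 49.97, 45.2, 49.3 and 27.7 CPM against 195, 232, 300 and 104 CPM, a log2 change of -2.06 ± 0.209 (adjusted p = 9.3e-10). Both genes were lower in 4 of 4 mice, and the lowest Acta2-high mouse, Aged D, still lay above every Acta2-low sum.

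Genes of proteins that sit on actin filaments were lower too. Cnn1, calponin, which binds actin and slows myosin (chr9:22099216-22109630), was at 64.2, 75.9, 21.1 and 66.0 CPM in Acta2-low and 585, 682, 690 and 359 CPM in Acta2-high cells, and fell by 2.97 on the log2 scale (SE 0.184, adjusted p = 9.0e-16). Tagln, the calponin relative transgelin, was at 153, 438, 190 and 247 CPM against 1238, 1699, 1129 and 890 CPM, and fell by 2.08 (SE 0.133, adjusted p = 1.7e-15). Tpm2, a tropomyosin that lies along the filament, was at 588 to 667 CPM in all 4 Acta2-low sums and at 1547 to 2220 CPM in Acta2-high sums, and fell by 1.46 (SE 0.0958, adjusted p = 3.7e-15). Caldesmon, Cald1, fell by 1.36, the LIM protein Csrp1 by 1.54, the PDZ-LIM protein Pdlim3 by 1.40 and leiomodin, Lmod1, which seeds filaments, by 0.89. Tpm1, another tropomyosin, was not called, with 749 ± 114 CPM (SD, n = 4) against 929.5 ± 149 CPM and a log2 change of -0.15 ± 0.107 (adjusted p = 0.45). Smtn, Pdlim7 and Ppp1r12a were not called either, at log2 changes of -0.08, -0.15 and -0.38. All 11 called genes stayed called when each mouse was left out in turn. Lmod1 lost its call in cells thinned to 2000 UMIs (-0.78, adjusted p = 0.065), in cells above the median depth (-0.57, adjusted p = 0.33) and without the mouse as a block (-0.88, adjusted p = 0.14).

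**Figure D2:**
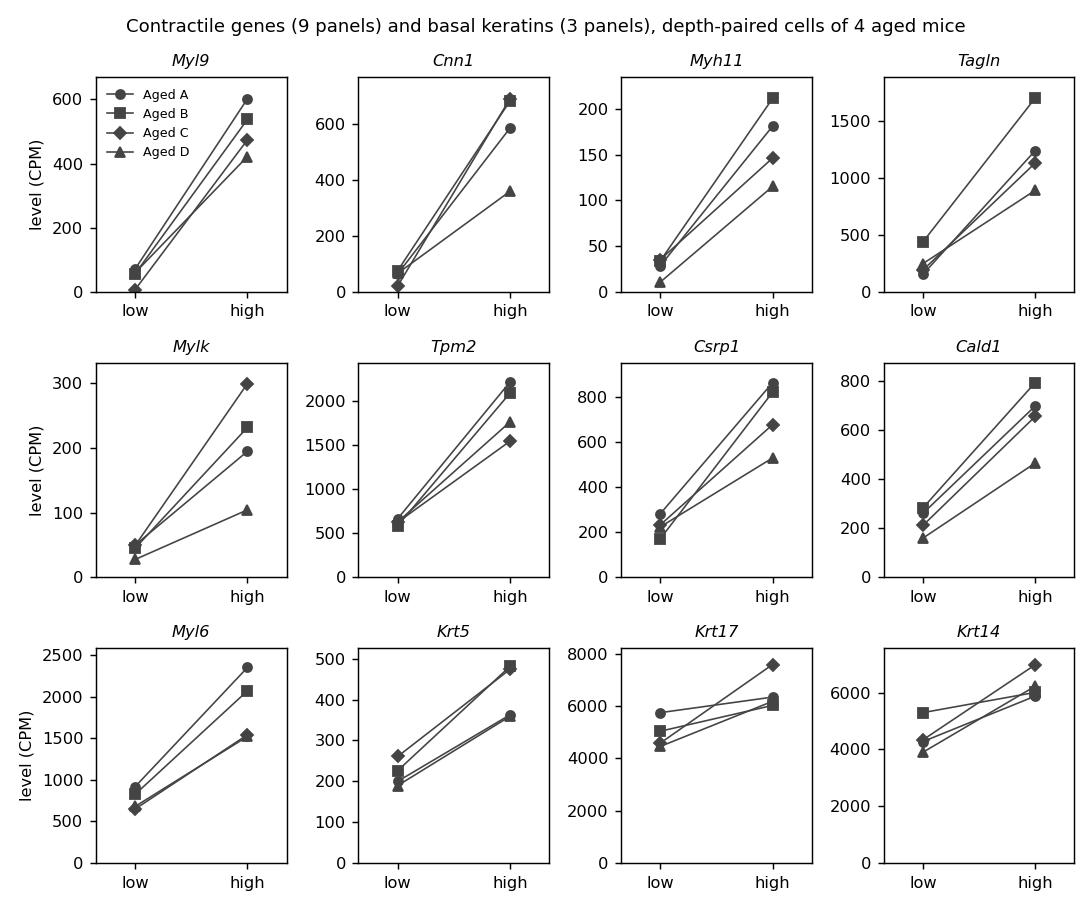
Level (CPM, linear axes from 0) of 9 contractile genes and 3 basal keratins in depth-paired Acta2-low (left) and Acta2-high (right) cells. Each line joins the sums of 1 aged mouse, and every line of the 9 contractile genes rises from low to high without the classes overlapping.

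Genes of the list under the count filter are given as levels. Actg2, the second smooth muscle actin, was at 0, 8.08, 0 and 2.13 CPM in Acta2-low sums and at 71.8, 119, 27.9 and 21.8 CPM in Acta2-high sums, and a UMI of it was found in 1.53% of Acta2-low, 20.0% of Acta2-high and 63.3% of young myoepithelial cells, against 0.174% of AV cells. The oxytocin receptor, Oxtr, was at 0 to 4.26 CPM against 0 to 25.1 CPM, and at 31.4 to 88.9 CPM in young myoepithelial cells. Srf was at 4.85 to 14.1 CPM in Acta2-low and 17.2 to 26.1 CPM in Acta2-high sums. Its cofactors Mkl1 and Mkl2 stood at 15.7 ± 3.88 and 11.2 ± 8.71 CPM against 21.2 ± 18.1 and 13.2 ± 6.66 CPM (SD, n = 4), and Myocd had no UMI in either class. No member of the group of SRF and its cofactors had enough counts to be tested.

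Promoters are shown for Acta2, which defined the classes, and for both called contractile genes whose window held a CArG box, with the box in capitals. The windows run from 250 bases before to 50 bases after a start site, from RefSeq on GRCm38.p6, the build to which the reads were mapped (mm10). The box was searched on both strands in its strict form only, a run of 6 A or T bases between CC and GG, and elements that differ from it by a base are not marked.
Acta2, chr19.0:34255324-34255623, minus strand: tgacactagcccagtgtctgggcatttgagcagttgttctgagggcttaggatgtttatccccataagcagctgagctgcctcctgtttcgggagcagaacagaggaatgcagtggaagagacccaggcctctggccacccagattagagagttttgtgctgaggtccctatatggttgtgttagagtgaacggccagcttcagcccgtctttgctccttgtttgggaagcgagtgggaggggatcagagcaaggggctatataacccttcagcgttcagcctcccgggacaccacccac
Myl9, chr2.0:156775214-156775513, plus strand: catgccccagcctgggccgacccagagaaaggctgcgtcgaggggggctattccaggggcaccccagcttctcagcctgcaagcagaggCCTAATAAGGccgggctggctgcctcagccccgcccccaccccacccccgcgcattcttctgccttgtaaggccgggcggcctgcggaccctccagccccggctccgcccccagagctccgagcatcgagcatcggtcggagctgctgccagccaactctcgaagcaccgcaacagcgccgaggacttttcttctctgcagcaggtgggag
Myl6, chr10.0:128492960-128493259, minus strand: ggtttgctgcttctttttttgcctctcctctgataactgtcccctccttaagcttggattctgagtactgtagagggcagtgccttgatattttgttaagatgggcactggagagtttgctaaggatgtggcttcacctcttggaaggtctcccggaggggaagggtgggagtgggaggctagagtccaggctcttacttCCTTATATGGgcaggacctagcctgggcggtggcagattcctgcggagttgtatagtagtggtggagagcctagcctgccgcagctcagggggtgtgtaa
A CArG box was found in 1.63% of all 32851 promoters of this length. Of the 11 called contractile genes 9 had a window in the table, and 2 held a box, Myl9 from position -161 and Myl6 from position -50 relative to the start site. A match is a description of the letters, and no binding was measured.

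Contractile mRNA was low in Acta2-low cells but found in more of them than of AV cells. At least 1 UMI of Actg2, Myh11, Mylk, Myl9, Tagln or Cnn1 was seen in 70.0% of Acta2-low cells (95% Wilson interval 65.3 to 74.3), in 89.1% of cells with 1 to 4 Acta2 UMIs and in 99.0% of Acta2-high cells, against 13.0% of AV cells. Thinned to 2000 UMIs per cell the shares were 46.6%, 72.5%, 95.01% and 5.17%. A cell held a median of 1 UMI of these 6 genes in the Acta2-low class, 3 in the class between and 11 in the Acta2-high class, and 23 in young mice. None of the 6 was seen in 27 of 80 Acta2-low cells of Aged A, 48 of 165 of Aged B, 9 of 30 of Aged C and 34 of 118 of Aged D, a share of 28.8% to 33.8%.

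Pericytes, the contractile cells around vessels, also make Acta2. The 8 pericyte markers summed to 2.13 to 35.2 CPM in Acta2-low and 0 to 10.3 CPM in Acta2-high sums, against 1219 to 1636 CPM in pericytes. In the Acta2-low sums 5 of the 8 were at 0. Markers of fibroblasts reached at most 75.0 CPM in Acta2-low and 37.6 CPM in Acta2-high sums, against at least 8206 CPM in fibroblasts. Markers of endothelial cells, which line vessels, summed to 96.4, 37.2, 500.3 and 42.6 CPM in Acta2-low and 178, 56.4, 27.9 and 97.9 CPM in Acta2-high sums of Aged A to D, so Aged C was higher and the other 3 mice lower in Acta2-low cells. Without cells that held 3 or more markers of 1 other type, 14 contractile genes were tested and 10 were called lower. The part of other cell types in the contractile result was not tested.

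Among basal keratins, Krt14 and Krt17 stayed under the fold limit while Krt5 and Krt15 were called lower. Krt14 was at 3896 to 5292 CPM in Acta2-low and 5872 to 6976 CPM in Acta2-high sums, a log2 change of -0.34 ± 0.0641 (adjusted p = 1.5e-04), and Krt17 changed by -0.24 ± 0.0655 (adjusted p = 0.012). Krt5, which pairs with Krt14, was at 200, 226, 261 and 189 CPM against 363, 481, 474 and 359 CPM and was called lower, by 0.80 (SE 0.136, adjusted p = 3.2e-05). Krt15, a keratin of basal progenitors in other epithelia, was at 60.7, 110, 14.1 and 59.6 CPM against 171, 251, 174 and 117 CPM, and fell by 1.21 (SE 0.207, adjusted p = 3.7e-05). Of the 15 genes of basal identity 12 were tested, and their median was -0.24. Of the 12, 3 were lower (Krt5, Krt15 and the hemidesmosome collagen Col17a1) and 0 higher, against a background of 3.47% lower. The call on Col17a1 was lost in 3 of 4 fits that left out a mouse. Without the mouse as a block Krt5 and Krt15 lost their calls (-0.80 and -1.21, adjusted p of 0.054 and 0.11). Krt15 also lost its call in cells above the median depth (-1.48, adjusted p = 0.057). Trp63, the transcription factor of basal epithelium, was under the filter at 18.2 ± 3.05 and 27.3 ± 10.4 CPM (SD, n = 4).

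Genes of the basement membrane, which these cells lay down, were lower in part. Of the 21 on the list 12 were tested, 4 were lower and 0 higher (median -0.16, background 3.47% lower). Sparc, a collagen-binding matrix protein, was at 460, 346, 317 and 358 CPM in Acta2-low and 975, 1052, 739 and 522 CPM in Acta2-high cells, a log2 change of -0.97 ± 0.133 (adjusted p = 8.5e-07). The collagen IV chain Col4a2 changed by -1.30 and the collagen chaperone Serpinh1 by -0.81. Lama3, Lamb3, Hspg2 and Timp3 lay between -0.16 and 0.09 and were not called. The call on Serpinh1 was lost without Aged B, with log2 changes of -0.66 to -0.97 over the fits that left out a mouse. Ctgf, a matrix-associated growth regulator, Eln, elastin, and Ilk, a kinase of integrin adhesions, were among the 10 genes with the largest falls, with log2 changes of -1.82, -1.82 and -1.67. Of the actin cytoskeleton that all cells use, 1 of 19 genes was lower (the crosslinker filamin A, Flna, at -1.22), beside a background of 3.47%. Actb and Actg1 changed by 0.22 and 0.04.

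Metallothioneins were lower in Acta2-low cells. These small proteins bind zinc and copper and are induced by metals and glucocorticoids. Mt1 was at 9969, 4142, 2474 and 1822 CPM in Acta2-low and 17585, 8982, 11248 and 5705 CPM in Acta2-high cells of Aged A to D. The classes overlapped between mice, since Aged A was high in both, but each mouse was lower in its Acta2-low cells, and the log2 change was -1.25 ± 0.0979 (adjusted p = 6.3e-13). Mt2 went from 7060 to 16334 CPM in Acta2-high sums and from 2944 to 11164 CPM in Acta2-low sums, and changed by -0.80 ± 0.0714 (adjusted p = 3.6e-11). Both calls need the mouse as a block: in the fit without the block the changes were -1.10 and -0.71 with adjusted p of 0.27 and 0.41.

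The promoters of Mt1 and Mt2 are shown because both genes moved together and hold several copies of the metal response element core, searched as TGCGCNC or TGCACNC on both strands and given in capitals (overlapping matches would be joined). Windows, build and source are as above.
Mt1, chr8.0:94178839-94179138, plus strand: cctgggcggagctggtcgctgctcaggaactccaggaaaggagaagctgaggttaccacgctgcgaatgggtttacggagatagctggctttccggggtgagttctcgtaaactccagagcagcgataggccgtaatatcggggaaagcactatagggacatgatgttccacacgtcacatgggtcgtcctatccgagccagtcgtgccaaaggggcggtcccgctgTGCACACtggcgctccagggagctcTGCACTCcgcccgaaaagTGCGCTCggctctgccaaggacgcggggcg
Mt2, chr8.0:94172368-94172667, plus strand: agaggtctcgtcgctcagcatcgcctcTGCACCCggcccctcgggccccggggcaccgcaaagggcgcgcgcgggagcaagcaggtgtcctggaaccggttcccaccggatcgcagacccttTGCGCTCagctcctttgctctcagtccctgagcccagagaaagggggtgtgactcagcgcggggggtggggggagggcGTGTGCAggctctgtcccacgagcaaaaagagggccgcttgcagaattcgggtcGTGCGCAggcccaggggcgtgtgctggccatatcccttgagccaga
Mt1 held 3 cores and Mt2 held 4 (a core on the other strand reads in reverse complement), where 1.97% of all promoters held 3 or more and 0.517% held 4 or more.

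Fth1, the heavy chain of the iron store ferritin, rose in Acta2-low cells. Its level was 14009, 10724, 11177 and 14245 CPM in Aged A to D, against 7336, 6233, 6467 and 8056 CPM in Acta2-high cells. The classes did not overlap, each mouse was higher in its Acta2-low cells (as for 8.86% of all genes), and the log2 change was 0.99 ± 0.0514 (adjusted p = 6.4e-18). The light chain Ftl1 changed by 0.46 ± 0.0618 (adjusted p = 4.9e-07), under the fold limit. Fth1 was found in every one of the 340 paired Acta2-low cells, and 10 cells held 11.9% of its UMIs, against 12.1% in Acta2-high cells. In AV cells Fth1 stood at 2753 CPM and in young myoepithelial cells at 3931 CPM, both below all Acta2-low sums. Of the other 7 tested genes of oxidative stress, ferritins and metallothioneins aside, such as Hmox1, Prdx1 and Sqstm1, none was called (log2 changes from -0.05 to 0.29).

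The neutrophil-attracting chemokines Cxcl1 and Cxcl2 were higher in Acta2-low cells. Cxcl1 was at 2902, 4042, 3206 and 7484 CPM in Acta2-low and 1888, 1271, 1164 and 4043 CPM in Acta2-high cells, a log2 change of 1.30 ± 0.0935 (adjusted p = 6.1e-14). Cxcl2 was at 2231, 2724, 1832 and 7354 CPM against 1101, 682, 160 and 3039 CPM, a log2 change of 1.83 ± 0.14 (adjusted p = 3.7e-13). Aged D was the highest mouse in both classes, so the classes overlap, yet every mouse was higher in its Acta2-low cells. A Cxcl2 UMI was found in 51.9% of Acta2-low and 33.1% of Acta2-high cells, and in 46.3% and 24.8% after thinning, against 31.0% of AV cells, or 18.2% after thinning. These calls too need the mouse as a block, with log2 changes of 1.24 and 1.66 and adjusted p of 0.18 and 0.26 without it. Of 12 tested cytokines and growth factors on a list that holds those the study names in these mice and others added here, these 2 were higher and 0 lower (background 2.16% higher), and the median was -0.03. Csf3, which calls up neutrophils, did not follow: it was at 1196 ± 178 and 1387 ± 288 CPM (SD, n = 4), with a log2 change of -0.06 ± 0.0957 (adjusted p = 0.80). Jag1, a Notch ligand, changed by 0.55 ± 0.14 (adjusted p = 0.0050) and was under the fold limit, while the Notch target Hes1 was called higher at 0.83, though higher in 2 of 4 mice, and the ligand Dll1 lower at -1.07. The call on Hes1 was lost without Aged B (0.42) and that on Dll1 without Aged B, C or D.

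**Figure D3:**
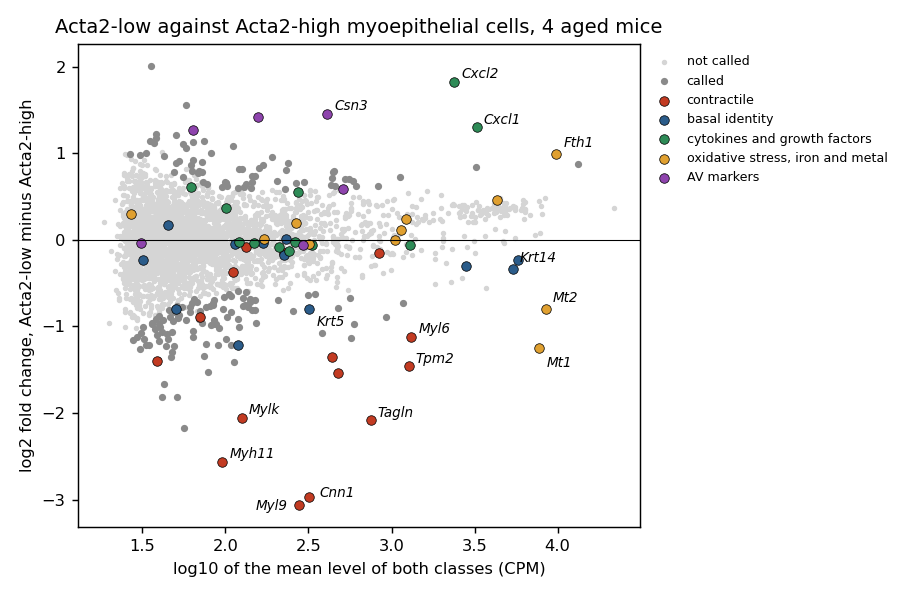
Log2 fold change (Acta2-low minus Acta2-high, after TMM) of each tested gene against log10 of its mean level in CPM, with 5 gene lists in colour. Contractile genes (red) lie as low as Myl9 at -3.06, Mt1 and Mt2 are the lowest genes at the right, and Fth1, Cxcl1 and Cxcl2 lie between 0.99 and 1.83.

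Several milk genes that mark AV cells were higher in paired Acta2-low sums. For the 4 called, 10 of 340 cells held 31.9% to 71.5% of the UMIs of a class. Of 10 AV markers 6 were tested, 4 were higher (Csn3, Wfdc18, Ltf and Trf) and 0 lower (background 2.16% higher), with a median of 0.93. The 2 others tested had negative log2 changes. Mfge8, an AV marker that was not called, had a UMI in 53.4% of Acta2-low, 70.9% of Acta2-high and 99.4% of AV cells. Without cells holding 3 or more markers of another type, a filter that uses Mfge8 itself, its log2 change was -0.66 (adjusted p = 0.040). Csn3, kappa-casein, was at 489, 399, 895 and 392 CPM against 113, 105, 683 and 196 CPM, a log2 change of 1.46 ± 0.168 (adjusted p = 2.2e-08). A UMI of it was seen in 33.2% of paired Acta2-low and 32.1% of paired Acta2-high cells, and 10 of the 340 Acta2-low cells held 68.6% of the Csn3 UMIs of their class, with up to 112 in a cell, against 58.0% and up to 44 in Acta2-high cells. For Wfdc18, a whey acidic protein relative, 10 cells held 71.5% of the UMIs in Acta2-low and 45.9% in Acta2-high cells. The calls were sensitive to which cells were used: Wfdc18 changed by 1.42 in paired cells but by 0.56 (adjusted p = 0.098) in all cells unpaired, Trf, at the fold limit, by 0.59 but by 0.32 (adjusted p = 0.21) without cells that Scrublet calls doublets, and Csn3 by 0.24 (adjusted p = 0.74) without cells holding 3 or more markers of another type, a filter that uses Csn3 itself. Over all cells of each class, unpaired, Ltf averaged 80.7 CPM in Acta2-low and 90.0 CPM in Acta2-high cells. The 10 markers summed to 1539 to 2037 CPM in Acta2-low and 983 to 1735 CPM in Acta2-high sums, against 20180 to 28345 CPM in AV cells. Per Csn3 UMI there were 0.669 to 1.55 Trf UMIs in Acta2-low, 0.663 to 3.55 in Acta2-high and 0.516 to 1.12 in AV cells over the 4 mice. The part of doublets and free RNA in these genes was not tested.

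Most early response genes had positive changes under the fold limit. Of 20 tested, 18 had a positive and 2 a negative log2 change, with a median of 0.44, while 1772 of all 3373 genes were positive. Of the 20, 2 were called higher (Klf4 at 0.68 and Cyr61 at 0.71) and 1 lower (Ctgf), beside 2.16% and 3.47% of all genes. The count called higher was 5 without Aged A, 6 without Aged B and 1 without Aged D. Without TMM factors 16 were positive and 0 were called higher. The AP-1 genes Fos and Jun were at 2592 ± 892 and 1416 ± 466 CPM (SD, n = 4) in Acta2-low and 2160 ± 552 and 1089 ± 399 CPM in Acta2-high cells, with log2 changes of 0.40 ± 0.0983 (adjusted p = 0.0038) and 0.55 ± 0.0862 (adjusted p = 1.2e-05). Of 11 NF-kB targets and of 9 heat shock genes tested 0 were called, with medians of 0.29 and -0.17. Nfkbia, the inhibitor that NF-kB induces, changed by 0.52 (adjusted p = 1.4e-05), and the small heat shock protein Hspb1 by -0.50 (adjusted p = 8.9e-05), both under the fold limit. On the list of wound-edge keratinocyte genes 4 of 11 tested were higher (Plet1, Ly6d, Il24 and Aqp3) and 1 lower (S100a6). The background was 2.16% higher and 3.47% lower. On this list 1 gene was called higher without Aged A and 2 without Aged B. Plet1, a surface protein of epithelial progenitors, was at 4561, 3536, 3763 and 3841 CPM against 1607, 2277, 2349 and 3867 CPM, so Aged D did not share its rise, and the call was lost without Aged A. S100a6, a calcium-binding protein, was at 500 to 700 CPM in Acta2-low and 996 to 1412 CPM in Acta2-high sums, and fell by 0.89 (SE 0.1, adjusted p = 1.4e-08).

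Subunits of the respiratory chain on the study's list had negative log2 changes for 13 of 13 tested, as did 1601 of all 3373 genes. Their median was -0.39, and 1 was called lower (Ndufa8 at -0.97, background 3.47% lower). The list was chosen on these mice and is therefore not independent evidence of a direction. None of 12 mitochondrially encoded genes was called, with a median of 0.03, and mitochondrial UMIs made up 3.47% ± 0.342 in Acta2-low and 3.75% ± 0.421 in Acta2-high cells (SD, n = 4). They were lower in 4 of 4 mice (exact two-sided sign-flip test, p = 0.125, the smallest 4 mice allow). Of 82 ribosomal protein genes 81 had positive log2 changes, as did 1772 of all 3373 genes tested. Their median was 0.35, and 0 were called. Without TMM factors 78 were positive and the median was 0.19. At 2000 UMIs a cell showed 826, 760, 768 and 731 genes in Acta2-low and 882, 815, 825 and 799.8 in Acta2-high cells of Aged A to D, a difference of -58.7 ± 6.48 genes (SD, n = 4, exact p = 0.125), so in each mouse Acta2-low cells spread their UMIs over fewer genes. By the deposited phase 62.7% ± 1.81 of Acta2-low and 55.5% ± 2.56 of Acta2-high cells were in S or G2M, higher in 4 of 4 mice (exact p = 0.125). The genes of the cell cycle list were too rare to bear on this, since 1 of 15 was tested (Pcna, 0.40, adjusted p = 0.33) and together they summed to 85.6 to 106 CPM in Acta2-low and 69.0 to 106 CPM in Acta2-high sums.

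Levels in cells with 1 to 4 Acta2 UMIs were set beside both classes for the called genes. These genes were chosen because the outer classes differ, which favours a level in between, so the counts are a description. Taken over all cells, 110 of the 117 genes called lower had mean levels in the order 0, 1 to 4, and 5 or more UMIs, and 54 kept this order in 4 of 4 mice. Of the 73 called higher 59 had the reverse order of means and 4 kept it in 4 of 4 mice. Tpm2 stood at 623, 901 and 1860 CPM over the 3 classes and Fth1 at 12431, 9279 and 7086 CPM, each in order in every mouse. Young myoepithelial cells were at 2358 CPM for Tpm2 and 3931 CPM for Fth1. Set against the cells with 1 to 4 UMIs, paired for depth, Acta2-low cells had 11 genes higher (0.306%) and 5 lower (0.139%). The 5 were Cnn1 (-1.32), Myh11 (-1.31), Myl9 (-1.13), Tagln (-0.78) and the desmosome protein Pkp1 (-0.84), of which Pkp1 was named after its value was seen. Among the 11 higher were Csn3, Wfdc18, Ltf, Hes1 and Il24.

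**Figure D4:**
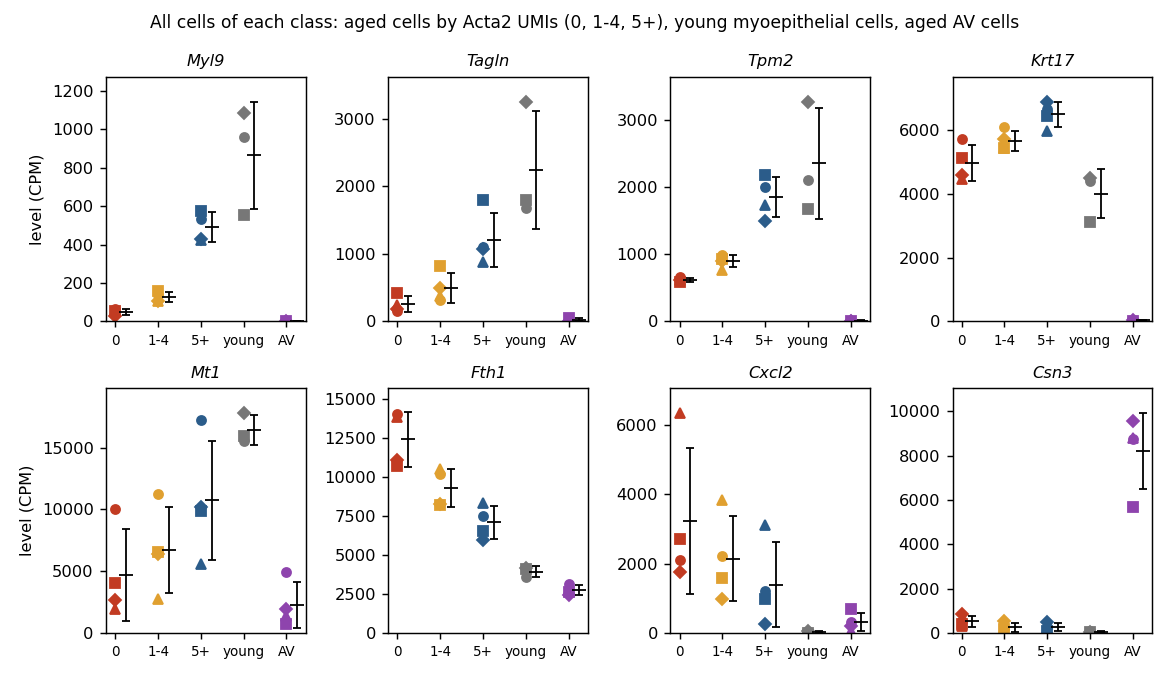
Level (CPM, axes from 0) of 8 genes in all aged myoepithelial cells with 0, 1-4 and 5+ Acta2 UMIs, in young myoepithelial cells and in aged AV cells. Points are mice (circle, square, diamond and triangle for A to D) and black marks are means ± SD. Tpm2 rises from 623 to 1860 CPM over the aged classes, Fth1 falls from 12431 to 7086 CPM, and Csn3 stays far below AV cells in all of them.

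Young mice tested the same relation in animals the rule did not use. Since only 1 young cell had no Acta2 UMI, the lowest and highest tertile of cells by Acta2 per UMI were compared within each mouse, paired for depth, with 49, 7 and 12 pairs in Young A, B and C. The lowest tertile still held a mean of 20.5, 9.57 and 18.1 Acta2 UMIs per cell. Of 783 genes tested 7 were higher (0.894%) and 10 lower (1.28%) in the lowest tertile. Of the 117 genes called lower in aged Acta2-low cells 48 were tested in young mice, 40 had the same sign and 8 were called lower. Of the 73 called higher 19 were tested, 17 had the same sign and 3 were called. The median log2 change in young mice was -0.40 for the 48 and 0.63 for the 19, beside -0.02 over all 783 genes. Without Young C 0 genes were called in either direction. Myl9 was at 604, 282 and 483 CPM in the lowest and 1408, 871 and 1726 CPM in the highest tertile, a log2 change of -1.45 ± 0.208 (adjusted p = 0.0017). Tagln, Tpm2, Cnn1, Mylk and Actg2 changed by -1.47, -1.35, -1.33, -1.51 and -2.60 and were called, as were Myl6 (-0.74) and Csrp1 (-0.83). Myh11, Cald1 and Pdlim3, called in aged mice, were tested here but not called. They changed by -0.83, -0.46 and -0.64 (adjusted p of 0.11, 0.52 and 0.44). Lmod1 was not tested in young mice. Krt14 and Krt17 were not called, at -0.17 and -0.21. Mt1 was at 15049 ± 2537 and 16522 ± 693 CPM (SD, n = 3) and Fth1 at 4278 ± 616 and 3939 ± 643 CPM, with log2 changes of -0.11 ± 0.136 and 0.17 ± 0.121 that were not called.

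The difference between tertiles was then compared between ages in 1 fit over 7 mice, and 15 of 3606 genes differed (0.416%). In aged tertiles 70 of 3633 genes were higher (1.93%) and 125 lower (3.44%). The changes of Myl9, Cnn1 and Myh11 were larger in aged mice, by -1.57 ± 0.269 (adjusted p = 5.7e-04), -1.50 ± 0.277 (adjusted p = 0.0016) and -1.63 on the log2 scale. For Tpm2 and Tagln the difference was -0.07 ± 0.182 (adjusted p = 0.97) and -0.54 ± 0.215 (adjusted p = 0.43), which does not show that they change alike. Mt1, Mt2, Krt15 and S100a6 fell more with Acta2 in aged mice, by -1.08, -0.64, -1.45 and -0.97, and Fth1 rose more, by 0.82. Cxcl1 and Cxcl2 did not pass this test (0.61 and 1.90, adjusted p of 0.81 and 0.58), at 19.7 to 108 and 4.94 to 65.5 CPM in all young myoepithelial cells. In simulated data this fit recovered 12% of 2-fold differences, so a gene that was not called may still differ. Hspa1a and Sox9 were higher in the lowest tertile of young mice, by 2.12 and 1.85, and at -0.29 and -0.05 in aged mice. The lowest tertile held a mean of 0 to 0.28 and the highest 9.81 to 18.1 Acta2 UMIs per cell in aged mice, against 9.57 to 20.5 and 40.0 to 92.7 in young mice, so the tertiles are not equal steps of Acta2.

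**Figure D5:**
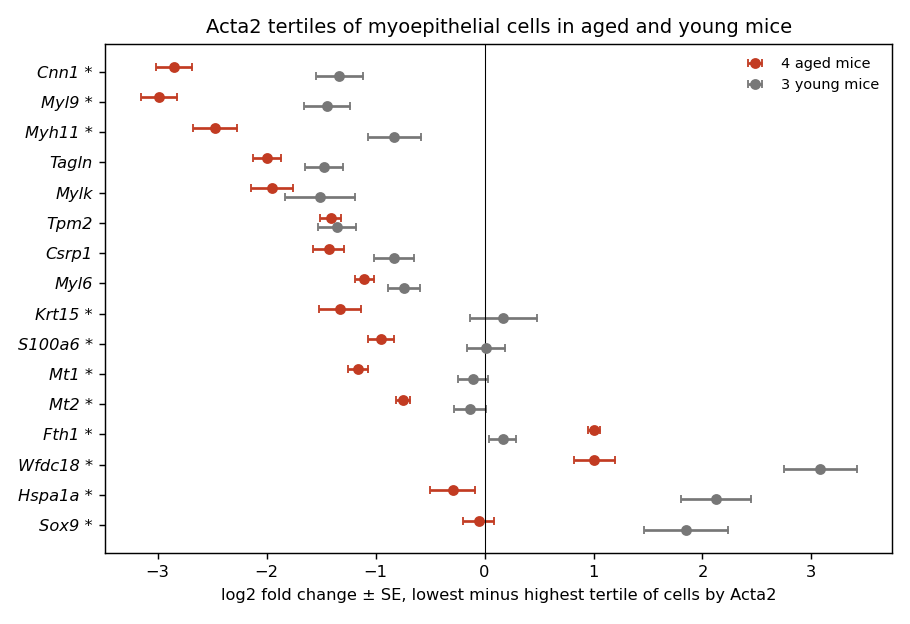
Log2 fold change ± SE of 16 genes between the lowest and highest tertile of myoepithelial cells by Acta2, in 4 aged mice (red) and 3 young mice (grey). Stars mark genes whose change differed between the ages, and Tpm2 and Tagln, without a star, fall in both ages while Mt1 and Fth1 depart from 0 in aged mice.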

How the data were processed

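The authors aligned reads to mm10 with Cell Ranger 2.0 and deposited unnormalised UMI counts. Cell types came from their clusters. The phase of a cell was derived by the authors from a Seurat cell-cycle score. Types, phases and the fraction of mitochondrial UMIs were used as deposited. Acta2 was left out of sums and library sizes. Counts were filtered with filterByExpr, scaled by TMM and tested with edgeR 4.0.16 on R 4.3.3. Tertiles used mice with at least 3 pairs, since Young B gave 7. Each mouse gave both classes, and deviations of its 2 sums correlated at 0.16 to 0.37 over genes. Scrublet doublets were kept. The fits were tested on simulated data. The members, lists and tests were chosen with earlier results of these data known. Named were the contractile and keratin genes of the study, called members of 5 lists, the 10 largest changes each way at 50 CPM or more in 4 of 4 mice, and up to 4 members of other lists. Other list members named, such as Srf and Oxtr, and Pkp1 were chosen after their values were seen. 1 called gene is not reported here. Except in the fit without the block, p-values measure how the difference within a mouse varies between mice. Alternatives were RLE, DESeq2 1.42.0, other filters, classes and cell subsets, and left-out mice.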

Additional observations from a re-analysis of the deposited data

Results flagged for a closer look

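In 3 of the named genes 1 mouse stood apart from the other 3 by Dixon's criterion, which chance alone meets in about 1 of 20 groups of 4 values (88 groups were examined). For Myl9 the log2 ratio of Acta2-low over Acta2-high levels was -6.07 in Aged C, from 7.05 and 474 CPM in 29 pairs. For Elf3 it was 2.60 in Aged C, from 42.3 and 6.97 CPM. For Il11 it was 1.57 in Aged B, from 84.0 and 28.2 CPM, and the call on Il11 was lost without that mouse. Each gene moved the same way in 4 of 4 mice.

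The difference between Acta2 tertiles differed between aged and young mice, by the interaction test, for 15 genes. Aged minus young, it was more negative for Cnn1 (-1.50), Myl9 (-1.57), Myh11 (-1.63), Krt15 (-1.45), Mt1 (-1.08), Mt2 (-0.64), S100a6 (-0.97), Crip1 (-1.43), Hspa1a (-2.41), Sox9 (-1.85) and Wfdc18 (-2.04). It was more positive for Fth1 (0.82) and Cotl1 (0.97). Wfdc18 was higher in the lowest tertile at both ages, by 3.08 in young and 1.01 in aged mice. For Ccl5 (8.43) and Rab8b (-6.99) 1 of the young tertiles had no UMI, so these fitted values are no measure of size.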

How the results depend on the processing

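In the main comparison 73 genes were higher and 117 lower. RLE scaling, no count filter, unpaired cells, a high class of 10 or more UMIs, removal of Scrublet doublets and of ribosomal and mitochondrial genes moved neither count by over 1.5 times. The counts were 24 higher and 35 lower by DESeq2, where 106 of the 190 calls had no adjusted p, 27 and 67 in cells thinned to 2000 UMIs, 11 and 5 against cells with 1 to 4 UMIs, 39 and 43 in cells above the median depth, and 29 and 66 without cells with 3 markers of another type. A high class of 3 or more UMIs gave 36 higher, no fold minimum 228 higher, and no scaling factors, an alternative chosen after seeing the data, 33 higher and 223 lower. Without the replicate block of the mouse they were 5 and 23, and 24 named genes lost their call. Leaving out each aged mouse gave 57 to 76 higher and 79 to 108 lower. No gene called in the main comparison turned its direction in any fit other than that against 1 to 4 UMIs, where 2 of 179 did. In young tertiles (7 higher, 10 lower) RLE gave 13 higher, no filter 12 and 16, no replicate block 2 and 3, and unpaired cells 14 and 20. Leaving out a young mouse gave 0 to 21 higher and 0 to 13 lower. For the 15 genes that differed by age DESeq2 gave 9 and leaving out a mouse 9 to 25. The difference in genes per cell was -68.7 against 10 or more UMIs, and leaving out a mouse gave -60.2 to -55.6. The cause of these shifts was not tested. The depth of 132915 to 593246 UMIs per sum limits the test to genes with a mean of 18.5 CPM or more over both classes.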
